A study of Mus musculus with 5 samples.

Results

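Clones 30 and 42 are separate clonal lines of cardiac progenitor cells from mouse hearts, and their expression profiles were set directly against each other, clone 30 over clone 42. For every probe set, a group of short probes that reports one transcript, the log2 ratio in clone 42 was subtracted from that in clone 30. All 45101 probe sets had a value in both clones. Of these, 15307 were counted as measured, and they gave a value for 9021 of the 18193 genes named on the array. The series holds 5 clones with 1 Affymetrix array each, namely clone 30, clone 42 and clones 1D, 11B and 20B. All 5 came from left ventricles of adult C67BL/6 mice (the strain as spelled in the labels) aged 5-6 months. No treatment or engineered allele is given for any of them. Cells were selected with an antibody to Sca-1, grown as cardiospheres, cloned with rings and subcloned by dilution, and the submitters call them c-kit+ cardiac progenitor cells. Each group is therefore 1 clone on 1 array, so no difference between clones 30 and 42 has a replicate check and no test was possible. The title of the series asks how clones differ in making SDF-1, the chemokine encoded by Cxcl12, and in forming vessels.

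Progenitor cells of the adult heart are found among its stromal cells and in culture can carry markers of stem cells beside those of connective tissue, smooth muscle or mesothelium. Stromal cells build the extracellular matrix from fibrillar collagens, collagen-binding proteoglycans such as biglycan and matricellular proteins such as SPARC, and they cut it with matrix metalloproteinases. Integrins, paired alpha and beta chains in the cell membrane, tie that matrix to actin, and ligands of the TGF-beta, BMP and activin family act on matrix genes through receptor kinases and SMAD proteins. Lines grown from single cells of one tissue often keep different settings of these programs through culture.

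The deposited values are ratios on a linear scale, each probe set having been divided by a number of its own, so a value compares clones and gives no level. The divisor cancels when clone 30 is divided by clone 42. A gene's difference is the mean of its measured probe sets in log2 units, and 1 log2 unit is a 2-fold difference. In place of replicates, the only error available was the disagreement between probe sets of one gene. Over 6140 pairs of probe sets of the same gene, this gave an SD of 0.47 log2 units for a single probe set. Among 1000 pairs in which at least 1 probe set was 1 log2 unit or more apart, both were so in 136 (13.6%), and 234 pairs had opposite signs. A gene resting on 1 probe set, as 6175 of the 9021 do, therefore carries a wide error. With such an error genes pass 1 log2 unit without a true difference, and their share among the genes apart is not known. Of the 15307 measured probe sets, 2613 had a pair of values in clones 30 and 42 that recurred exactly on at least 10 others. Of these, 0 were 1 log2 unit apart, and such a repeated pair need not show equal expression. The 18 hybridization controls, added after labelling, had a median difference of 0.03 (-0.25 to 0.14). The 24 poly-A controls, transcripts added to the RNA before labelling, were all higher in clone 30, with a median of 0.64 (0.08 to 1.25). The 5′ over 3′ ratio of a control is a sign of RNA length. Each probe set having been divided by its own number, this ratio only compares clones and gives no absolute measure of RNA length. For Actb it was 0.743 in clone 30 and 1.08 in clone 42, and for Gapdh 1.00 in clone 30 and 1.08 in clone 42. For 18S ribosomal RNA this ratio ran the other way, 1.00 in clone 30 and 0.682 in clone 42. Whether these control values have a part in the results was not tested.

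Clone 30 was at least 1 log2 unit higher than clone 42 for 175 genes (1.94% of the 9021) and at least 1 log2 unit lower for 218 (2.42%). At 2 log2 units, a 4-fold difference, 35 genes were higher (0.388%) and 20 lower (0.222%). The bulk of genes differed little. The median difference over all genes was -0.01, the quartiles were -0.21 and 0.13, and the SD was 0.47. That spread is no wider than the SD of 0.47 given above as the error of a single probe set. Since RNA came from whole cultures, fewer cells that express a gene and less RNA per cell cannot be told apart. Scaling the arrays to the poly-A controls, a choice made after seeing the data, lowered every difference by 0.64 and left 53 genes higher and 1497 lower, with a median over all genes of -0.66. All differences below are on the deposited scale, and the medians of whole gene lists are followed by their values after that scaling. The shares of 1.94% and 2.42% over all genes are what a list's count of higher and lower genes is to be read against. Among the 175 higher genes, 128 rested on 1 measured probe set. The other 47 had 2 or more, and in 23 of these every one was at least 1 log2 unit higher. Among the 218 lower genes, 143 rested on 1 measured probe set. The other 75 had 2 or more, and in 17 every one was at least 1 log2 unit lower.

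Setting each of the pair against the other 3 clones shows, for many of these genes, which clone stands apart. Against the median of clones 1D, 11B and 20B, clone 30 alone departed by at least 1 log2 unit for 74 of the 175 higher genes, clone 42 alone for 41, both for 9 and neither for 51. Of the 218 lower genes, clone 30 alone departed for 91, clone 42 alone for 42, both for 3 and neither for 82. Clone 30 was the farther of the pair from the other clones in 107 of the 175 and in 141 of the 218. Over all 9021 genes, clone 30 departed from that median by at least 1 log2 unit for 324 (3.59%) and clone 42 for 196 (2.17%). Among the 10 pairs of clones, over the 9435 genes measured for any of them, clones 30 and 42 had the sixth fewest genes apart, 385, in a range from 118 (clones 20B and 1D) to 460 (clones 30 and 1D).

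**Figure D1:**
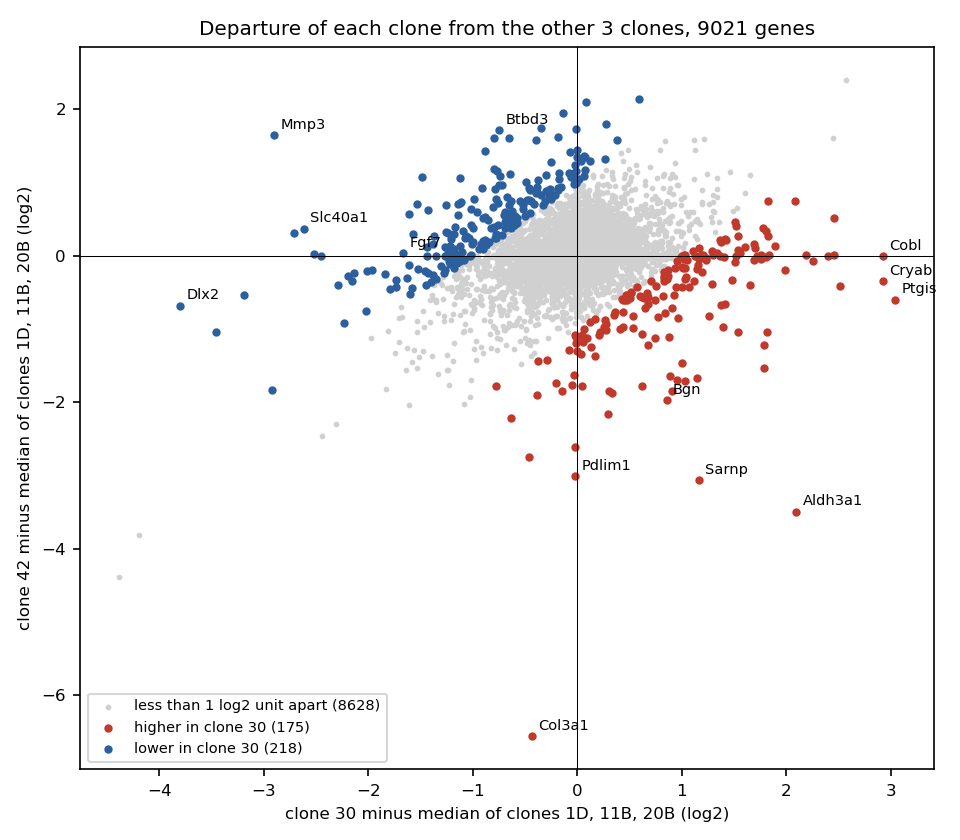
Departure of clone 30 (horizontal axis, log2) and of clone 42 (vertical axis, log2) from the median of clones 1D, 11B and 20B, 1 point per gene. The 175 genes higher in clone 30 (red) and the 218 lower (blue) spread along both axes, with Col3a1 far down the axis of clone 42 and Ptgis, Cryab and Cobl far along that of clone 30.

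Matrix genes were among the largest differences. The collagens that were apart, the proteoglycan biglycan and 3 matricellular genes were higher in clone 30. The protease Mmp3 was far lower, and the collagen-modifying enzyme Plod2 was lower at -1.14. Of 24 fibrillar and associated collagens, 13 were measured, 5 of them at least 1 log2 unit higher in clone 30 (38.5%, against 1.94% of all genes) and 0 lower (2.42% of all genes). The list's median was 0.22 beside -0.01 for all genes, and -0.42 beside -0.66 after poly-A scaling, where 4 stayed at least 1 log2 unit higher. The remaining 11, Col1a2 and Col6a1 among them, lay at or under the authors' floor and gave no value.

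Col3a1 encodes the chain of type III collagen, a fibrillar collagen of stretchable tissues. Its 1 measured probe set read 0.864 in clone 30 and 0.0124 in clone 42, with 1.18 in clone 1D and 1.17 in clone 11B. The difference of 6.12 log2 units was the largest of any gene, and clone 42 was the clone that stood apart. A second probe set of Col3a1 was below the floor in both clones, at 0.798 in clone 30 and 0.801 in clone 42, and averaging it in gives 3.06. Col1a1, the main chain of type I collagen, read 1.58 in clone 30 and 0.105 in clone 42 on one probe set. On its other probe set it read 1.00 in clone 30 and 0.498 in clone 42, which gives a gene difference of 2.46. Type VI collagen forms beaded filaments around cells. Its chain Col6a2 read 2.89 and 2.39 in clone 30, against 0.510 and 0.508 in clone 42, a difference of 2.37 on which both probe sets were close. Col6a3, another chain of the same collagen, read 1.84 in clone 30 and 0.464 in clone 42. Col8a1, a short-chain collagen of vessel walls, was 1.57 log2 units higher in clone 30, where it read 0.945 and 1.00, against 0.371 and 0.287 in clone 42. Unlike type VI collagen, it was at the low end of the other clones in clone 30, so that clone 42 again stood apart.

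Of 19 measured proteoglycans and matricellular proteins, 4 were at least 1 log2 unit higher in clone 30 (21.1%, against 1.94% of all genes) and 0 lower. Their median was 0.23, and -0.42 after poly-A scaling, where the count of 4 was kept. Biglycan (Bgn), a small leucine-rich proteoglycan that binds collagen, read 1.45, 1.38 and 2.96 on its 3 probe sets in clone 30, against 0.471, 0.582 and 0.0609 in clone 42. All 3 were higher in clone 30, though by very unequal amounts, and the gene difference was 2.82. Sparc, a collagen-binding matricellular protein, read 1.95, 1.88 and 0.989 in clone 30, against 0.142, 0.688 and 1.11 in clone 42. The last of these ran slightly the other way, and the mean of 1.69 depends on the others. Olfml3, a secreted olfactomedin-domain protein, read 0.760 in clone 30 and 0.155 in clone 42, and Igfbp7, a secreted protein that binds insulin-like growth factors, read 3.98 in clone 30 and 0.873 in clone 42. For Igfbp7 the difference of 2.19 becomes 0.75 when unmeasured probe sets are averaged in. Emilin1, a glycoprotein of elastic fibres, was 1.61 log2 units higher on the mean of 2 probe sets, of which one read 2.93 in clone 30 and 0.313 in clone 42 and the other 0.990 in clone 30 and 1.00 in clone 42. The latter pair of values recurred on 96 other probe sets. Emilin1 was the 1 of 7 measured elastic fibre genes that was 1 log2 unit apart, and the list's median of 0.19 becomes -0.45 after poly-A scaling. Ccdc80, a secreted matrix-binding protein, was 2.53 log2 units higher in clone 30. Of 17 measured collagen processing enzymes, Pcolce2, an enhancer of procollagen cleavage, was 1.06 higher in clone 30, and Plod2, a lysyl hydroxylase that sets collagen cross-links, was 1.14 log2 units lower (difference -1.14). With every probe set averaged Plod2 is at -0.58, under the size used for calls. None of the 10 measured basement membrane genes was 1 log2 unit apart, the farthest being Lama4 at 0.52, Nid2 at 0.49 and Lamc1 at -0.43. Nid2 counted as measured only through clone 30, and with values raised to the floor it is at 0.11.

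The matrix metalloproteinase stromelysin-1 (Mmp3), which cuts proteoglycans and activates other metalloproteinases, lay the other way. It read 0.134 in clone 30 and 3.13 in clone 42, with 1.00 in clone 1D, 2.18 in clone 11B and 0.664 in clone 20B. At -4.54 log2 units it was the lowest gene of clone 30, which held the least of the 5 clones while clone 42 held the most. Timp2, a tissue inhibitor of metalloproteinases, was 1.47 log2 units higher in clone 30 on 3 probe sets, reading 2.75, 1.32 and 2.37 in clone 30, against 0.590, 0.983 and 0.704 in clone 42, and its smallest probe set difference was 0.43. Timp2 is at 0.88 with every probe set averaged, under the size used for calls. No other of the 19 measured proteases and inhibitors was 1 log2 unit apart.

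**Figure D2:**
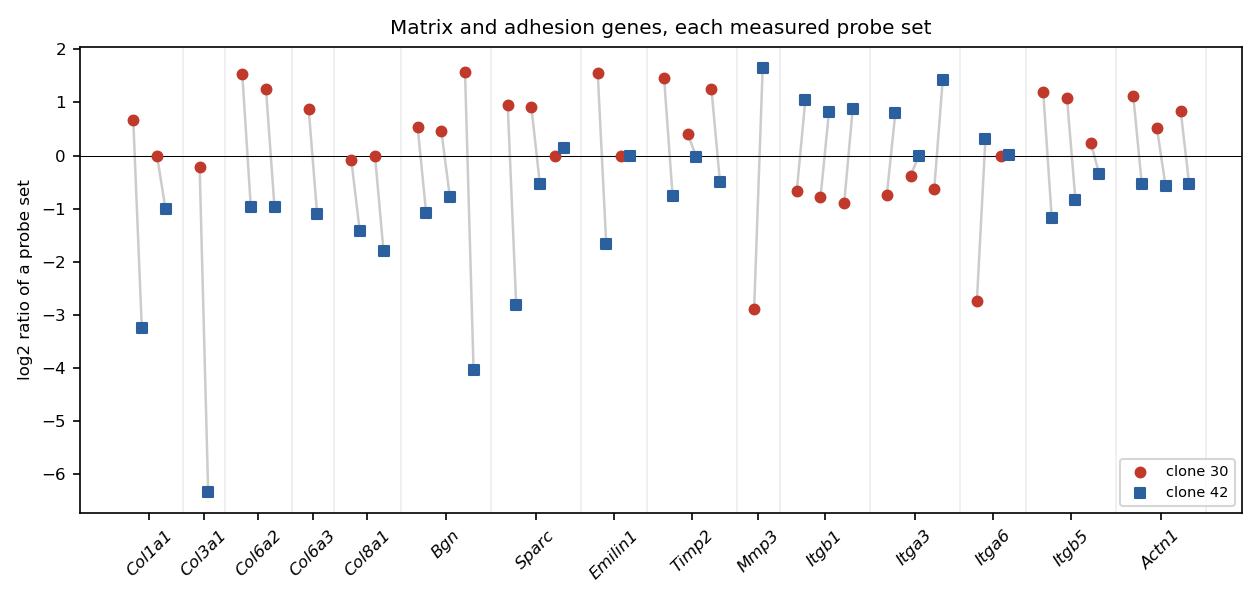
Log2 ratio (vertical axis) of each measured probe set of 15 matrix and adhesion genes in clone 30 (red circles) and clone 42 (blue squares), joined by a line. Clone 30 lies above clone 42 on every probe set of the collagens and Bgn shown, below it for Mmp3 and Itgb1, the probe sets of Sparc and Emilin1 disagree in sign, and those of Itga6 in size.

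The stretch just before the transcription start is shown for 4 genes with large or doubly measured differences, 2 of the matrix, 1 protease and the heat shock gene Hspb1 described further on. RefSeq promoter sequence (build GRCm38.p6, 5′ to 3′ on the gene's strand, the 250 bases before the start) was found for 324 of the 393 genes apart. Col3a1 lies at chr1:45311288-45311537 (plus strand), Bgn at chrX:73483351-73483600 (plus), Hspb1 at chr5:135887669-135887918 (plus) and Mmp3 at chr9:7445572-7445821 (plus). Capitals mark matches, on either strand, to the TATA box (TATAAA), the CCAAT box (spelled as its name), the AP-1 word (TGANTCA), the heat shock element core (GAANNTTC) and the GC box (GGGCGG), and copies may overlap.
Col3a1: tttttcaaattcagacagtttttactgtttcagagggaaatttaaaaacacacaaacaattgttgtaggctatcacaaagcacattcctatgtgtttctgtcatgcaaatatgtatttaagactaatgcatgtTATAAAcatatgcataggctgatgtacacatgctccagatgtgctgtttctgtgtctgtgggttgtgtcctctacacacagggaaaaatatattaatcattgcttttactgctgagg
Bgn: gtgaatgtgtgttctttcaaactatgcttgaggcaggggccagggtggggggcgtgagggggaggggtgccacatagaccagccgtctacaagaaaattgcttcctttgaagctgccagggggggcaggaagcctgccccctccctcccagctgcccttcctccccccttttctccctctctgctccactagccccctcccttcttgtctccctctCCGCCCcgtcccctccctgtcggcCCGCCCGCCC
Hspb1: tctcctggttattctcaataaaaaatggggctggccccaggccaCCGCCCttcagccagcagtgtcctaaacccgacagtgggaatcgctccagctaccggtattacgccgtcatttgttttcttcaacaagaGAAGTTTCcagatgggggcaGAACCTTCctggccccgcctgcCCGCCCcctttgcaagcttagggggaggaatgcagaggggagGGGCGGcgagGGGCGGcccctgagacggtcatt
Mmp3: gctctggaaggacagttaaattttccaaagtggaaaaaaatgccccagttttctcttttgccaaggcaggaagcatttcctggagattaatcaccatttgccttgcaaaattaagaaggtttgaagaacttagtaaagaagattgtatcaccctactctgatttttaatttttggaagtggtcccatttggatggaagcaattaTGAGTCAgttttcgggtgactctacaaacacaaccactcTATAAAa
Mmp3 held 1 AP-1 match and 1 TATA match close to its start, Col3a1 held 1 TATA match farther from it, and Bgn held GC boxes alone. Hspb1 held 2 heat shock element cores among 4 GC boxes. Promoters of Sparc, Itgb1 and Hand2 were read as well and are not shown. Sparc held 0 matches, Itgb1 held 1 GC box, and Hand2 held CCAAT and GC boxes. The AP-1 word was present in 6.85% of the 146 higher genes with a promoter, 3.93% of the 178 lower ones and 5.98% of the 7376 measured genes. The heat shock word was present in 7.53% of the higher, 10.1% of the lower and 6.07% of the measured genes. For the TATA word the shares were 10.3%, 5.62% and 8.58%, for CCAAT 36.3%, 43.3% and 40.1%, and for the GC box 68.5%, 75.3% and 62.9%, in the same order. Over all 32851 promoter windows of the table, 6.75% held the AP-1 word, 6.69% the heat shock word, 12.4% the TATA word, 33.8% the CCAAT word and 32.7% the GC box. A match is a description of these letters and not a binding site.

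Genes that tie cells to the matrix were apart in both directions. Of 42 measured integrins and actin regulators, 4 were at least 1 log2 unit higher in clone 30 and 4 lower (9.52% each, against 1.94% and 2.42% of all genes), with a median of 0.03, and after poly-A scaling 2 were higher and 8 lower with a median of -0.61. Itgb1 encodes the beta-1 chain shared by most collagen and laminin receptors. Its 3 probe sets read 0.631, 0.579 and 0.538 in clone 30, against 2.06, 1.77 and 1.84 in clone 42, a close agreement that gave -1.70. Averaging in all probe sets of Itgb1 that were left out gives -0.85, under the size used for calls. The highest clone was 42, followed by clone 1D, and clone 30 was the lowest. Both alpha chains that differed pair with it in laminin receptors. Itga3 read 0.598, 0.770 and 0.646 in clone 30, against 1.75, 1.00 and 2.69 in clone 42 (difference -1.33). Itga6 read 0.149 in clone 30 and 1.24 in clone 42 on one probe set but 0.990 in clone 30 and 1.01 in clone 42 on the other, so that its mean of -1.54 rests on 1 of 2. The latter pair of values recurred on 29 other probe sets. The beta-5 chain, which pairs with the alpha-V chain in a vitronectin receptor, ran the other way: Itgb5 read 2.28, 2.13 and 1.18 in clone 30, against 0.442, 0.560 and 0.790 in clone 42 (difference 1.63). Parva, a linker from integrins to actin, was at -1.04 (-0.51 with every probe set averaged).

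On the actin side, Actn1, an actin cross-linker of focal adhesions, read 2.17, 1.43 and 1.80 in clone 30, against 0.687, 0.674 and 0.685 in clone 42, and was 1.38 log2 units higher. Pdlim1, which binds alpha-actinin, read 0.989 in clone 30 and 0.125 in clone 42, and since the other 3 clones read between 1.00 and 1.05 it was clone 42 that was low. With its unmeasured probe sets averaged in, Pdlim1 is at 0.99. Cobl, an actin nucleator, read 3.27 in clone 30 and 0.429 in clone 42. Its value in clone 42 lay under the floor, as in the other clones, so it counted as measured only through clone 30, and with such values raised to the floor its difference is 1.71. Tagln and Csrp1, actin-binding and LIM proteins of smooth muscle, were 1.83 and 1.06 log2 units higher in clone 30, the 2 of 13 measured smooth muscle genes that were apart (median 0.11, and -0.53 after poly-A scaling). With every probe set averaged Csrp1 is at 0.54. Tagln read 3.56 in clone 30 and 1.00 in clone 42. Acta2, the smooth muscle actin, was at 0.21, Des at 0.37 and Myh11, the smooth muscle myosin, at 0.00. Among 15 measured cadherin and junction genes 0 were apart.

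Outside the matrix, several of the largest differences belonged to enzymes, transporters and stress proteins. Sarnp, an mRNA export factor, and Dnajc14, a membrane chaperone, had 4.23 and 3.01 on their means. Sarnp read 2.44, 2.79 and 1.66 in clone 30, against 0.0835, 0.0406 and 0.507 in clone 42, and clone 1D was as low as clone 42 on the first 2 of these. Dnajc14 read 2.74 and 4.39 in clone 30, against 0.618 and 0.301 in clone 42, with clone 1D again low at 0.621 and 0.262. The genes are near neighbours in the RefSeq gene order, with Ormdl2 between them. Aldh3a1, an aldehyde dehydrogenase of detoxification, read 4.29 in clone 30 and 0.0889 in clone 42, with 0.973 in clone 1D and 1.03 in clone 11B. The difference of 5.59 thus joined a high clone 30 to a low clone 42. Ptgis, the synthase of prostacyclin, read 8.24 in clone 30 and 0.661 in clone 42, where clone 42 was like the others (0.715 to 1.45). It was the 1 of 9 measured prostanoid genes apart.

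**Figure D3:**
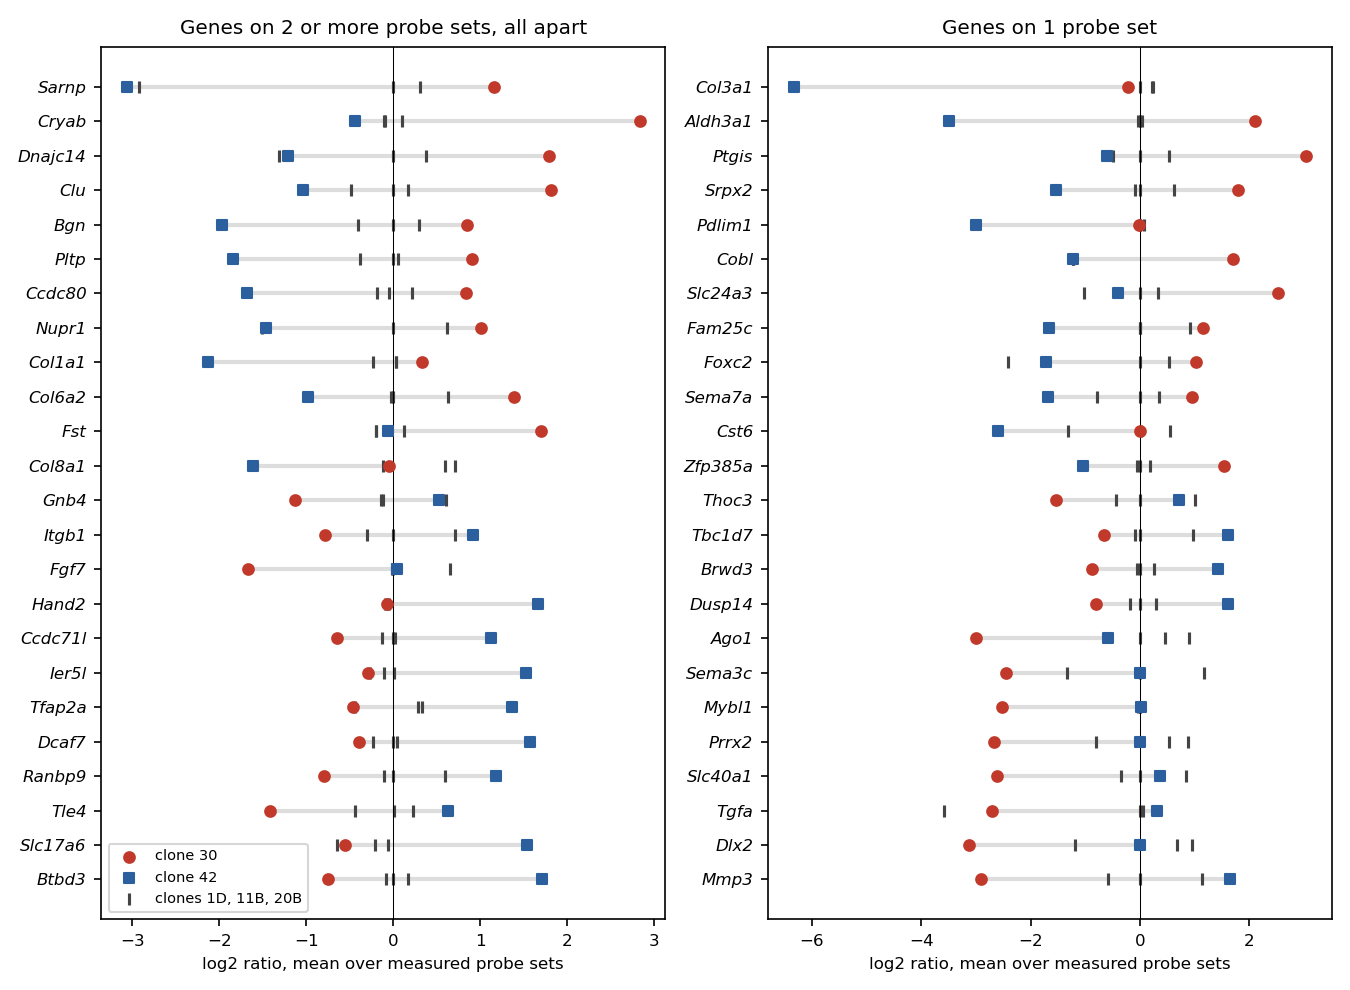
Log2 ratio (horizontal axis) of 48 genes with the largest differences, 12 in each direction from each of 2 kinds of gene. The left panel holds genes with 2 or more measured probe sets, all at least 1 log2 unit apart the same way. The right panel holds genes with 1 measured probe set. For Cryab, Hand2 and Slc17a6, a probe set counted as measured only through the higher clone, so its direction was fixed by that rule. Red circles are clone 30, blue squares clone 42 and dark ticks clones 1D, 11B and 20B, and in most rows the ticks lie between the pair or beside one of them.

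Clusterin (Clu), a secreted chaperone, had 4 probe sets that read 2.92, 3.69, 3.47 and 4.07 in clone 30, against 0.343, 0.599, 0.664 and 0.416 in clone 42. The gene difference was 2.85 with every probe set at least 2.38 apart. Pltp, the phospholipid transfer protein of lipoproteins, read 1.78 and 2.00 in clone 30, against 0.214 and 0.366 in clone 42. Nupr1, a stress-induced nuclear protein, read 2.19 and 1.85 in clone 30, against 0.276 and 0.476 in clone 42, where clone 11B was as low (0.309 and 0.401). It was the 1 higher gene among 43 measured genes of the unfolded protein and amino acid stress response, in which Vldlr, a lipoprotein receptor, was at -1.41, Asns, asparagine synthetase, at -1.03. Also lower by 1 log2 unit, Canx, a lectin chaperone of the endoplasmic reticulum, read 0.897 and 0.413 in clone 30, against 1.11 and 1.33 in clone 42. Averaging every probe set puts Vldlr at -0.44 and Canx at -0.65, both under the size used for calls. The genes on 1 probe set that were higher in clone 30 also included Srpx2 (3.32), a secreted sushi-repeat protein, Slc24a3 (2.93), a sodium, potassium and calcium exchanger, Fam25c (2.81), Foxc2 (2.74), a forkhead factor of mesenchyme and vessels, Sema7a (2.65), a membrane-anchored semaphorin, Cst6 (2.59), a cysteine protease inhibitor, and Zfp385a (2.58), a zinc finger protein.

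Small heat shock proteins bind unfolding proteins without using ATP, and Cryab, the alpha-B crystallin abundant in muscle, was the largest among them. On 2 probe sets it read 4.20 and 12.2 in clone 30, against 0.869 and 0.626 in clone 42, and no other clone exceeded 1.21. Its difference was 3.28, and the first of these probe sets counted as measured only through clone 30. Hspb1, its partner in mixed oligomers, read 1.00 on both probe sets in clone 30, against 0.342 and 0.352 in clone 42, with clone 11B nearly as low at 0.403 and 0.399. That 1.53 difference was thus a low clone 42 beside an ordinary clone 30, unlike Cryab. All 5 measured small heat shock genes were above 0, the others being Hspb8 at 0.89, Hspb3 at 0.74 and Hspb6 at 0.49. Of the 8 larger chaperones 0 were apart, and Hsph1 stood lowest at -0.91. After poly-A scaling the 13 genes of the list had a median of -0.40, with 1 higher and 2 lower.

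Of genes lower in clone 30 on all of 2 or more measured probe sets, Btbd3, a BTB-domain protein of dendrite orientation in neurons, was at -2.46. It read 0.602 and 0.588 in clone 30, against 3.90 and 2.75 in clone 42. Slc17a6, a vesicular glutamate transporter of neurons, read 0.742 and 0.623 in clone 30, against 1.65 and 5.10 in clone 42, and was the 1 of 7 measured glial and neuronal genes that was apart. The first of its probe sets counted as measured only through clone 42, so its direction was fixed by that rule. Tle4, a Groucho-type corepressor, read 0.644 and 0.219 in clone 30, against 1.55 and 1.56 in clone 42. Others were Ranbp9, a scaffold protein (-1.97), Dcaf7, a WD-repeat adaptor (-1.97), Ier5l (-1.81), Ccdc71l (-1.77) and Gnb4, a G protein beta chain (-1.66). On 1 probe set each, Slc40a1, the iron exporter ferroportin, read 0.163 in clone 30 and 1.30 in clone 42, Mybl1, a Myb-family factor, 0.174 in clone 30 and 1.02 in clone 42, Sema3c, a secreted semaphorin, 0.183 in clone 30 and 1.00 in clone 42, and Ago1, an Argonaute protein of RNA silencing, 0.125 in clone 30 and 0.665 in clone 42. In all 4 clone 30 was the lowest of the 5 clones. Dusp14, a phosphatase of MAP kinases, was at -2.41, Brwd3 at -2.31, Tbc1d7, a subunit of the TSC complex, at -2.27 and Thoc3, a subunit of an mRNA export complex, at -2.24. Brwd3 is at -0.78 and Dcaf7 at -0.99 with every probe set averaged, so that neither keeps its call.

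The TGF-beta, BMP and activin family had genes apart in both directions. Of 33 measured genes 4 were higher in clone 30 and 3 lower (12.1% and 9.09%, against 1.94% and 2.42% of all genes), with a median of -0.24. After poly-A scaling 2 were higher and 9 lower with a median of -0.89. Both higher ligands were Inhbb, the activin B chain, which read 3.94 in clone 30 and 1.03 in clone 42, and Tgfb3, which read 2.88 in clone 30 and 1.21 in clone 42. Both higher inhibitors were Fst, follistatin, which binds activin, and Smad6, which blocks BMP signalling inside the cell. Fst read 4.44 and 2.39 in clone 30, against 1.00 and 0.917 in clone 42, with the other clones between 0.750 and 1.19. Smad6 was at 1.41. Inhbb falls to 0.96 with every probe set averaged, under the size used for calls. Of the 8 measured ligands 5 were above 0 and 3 below, with a median of 0.15, and of the 8 inhibitors 5 were above and 3 below, with a median of 0.07 and Fstl3, a follistatin-like protein, lowest at -0.59. All 11 measured receptors were below 0, as were 54.4% of all genes, 2 of them by at least 1 log2 unit: Acvr1, a type I receptor for BMPs and activins (-1.27), and Tgfbr3, the coreceptor betaglycan (-1.17). The measured probe sets of Acvr1 were unequal, at -1.91 and -0.64. Averaging every probe set puts Acvr1 at -0.86 and Tgfbr3 at -0.59, so that neither receptor keeps its call. All 6 measured target genes were below 0 as well, with Id4, a dominant-negative helix-loop-helix factor, at -1.26, Id2 at -0.81, Id3 at -0.47 and Id1 at -0.38. Id4 was the 1 target at least 1 log2 unit apart. Its 3 probe sets differed widely, from -2.55 to -0.09, and the one at -1.14 counted as measured only through clone 42.

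**Figure D4:**
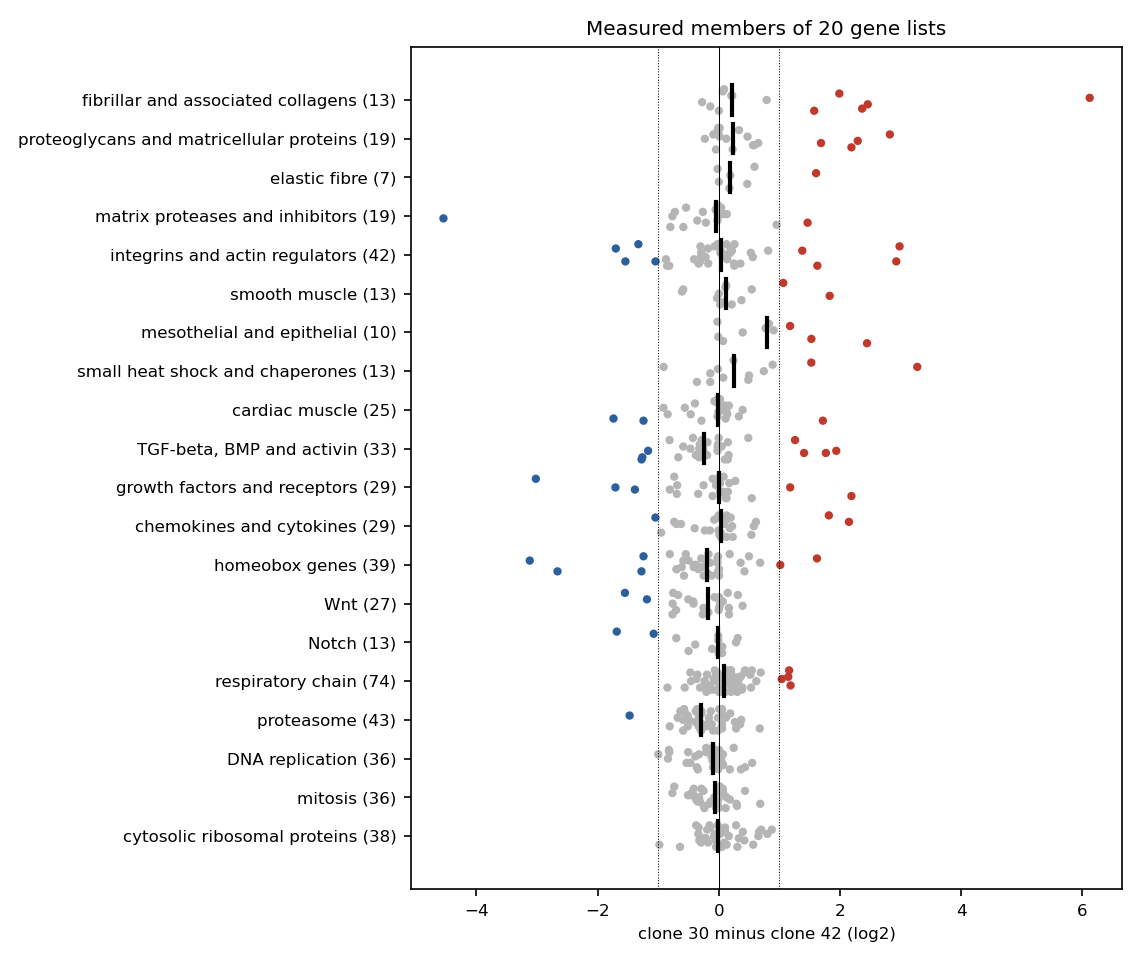
Difference of clone 30 minus clone 42 (horizontal axis, log2) for each measured member of 20 gene lists, with the number measured in brackets, a black bar at the list's median and dotted lines at 1 log2 unit either way. Members higher in clone 30 are red and lower ones blue; the 5 collagens and 4 proteoglycan and matricellular genes apart are all on the right, and the bars move left by 0.64 with poly-A scaling.

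Cxcl12, the gene of SDF-1, was 0.91 log2 units lower in clone 30 (difference -0.91), under the size used for calls. Its probe sets disagreed. One read 0.307 in clone 30 and 1.00 in clone 42 and the other 0.974 in clone 30 and 1.06 in clone 42, while clone 11B read the most on both (1.89 and 2.78). The second counted as measured only through clone 42, and on the first alone the difference of Cxcl12 is -1.71. In 2 of 11 alternative ways of processing, Cxcl12 was at least 1 log2 unit lower in clone 30. Cxcr4, its receptor, was at the floor in both clones. Ackr3, a scavenging receptor for SDF-1, was at 0.23 and Dpp4, a protease that cuts it, at -0.02. The pair of values behind the Dpp4 difference recurred on 355 other probe sets.

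Among 29 measured growth factor and receptor genes 2 were higher and 3 lower (6.90% and 10.3%, against 1.94% and 2.42% of all genes). Igfbp7 and Igfbp6 (1.18), binding proteins of insulin-like growth factors, made up the higher pair. Tgfa, a ligand of the EGF receptor, read 0.153 in clone 30 and 1.24 in clone 42, and clone 11B was lower still at 0.0839. Fgf7, keratinocyte growth factor, read 0.397 and 0.250 in clone 30, against 1.06 and 1.00 in clone 42, and clone 30 was the lowest of all clones. Fgfr2, whose epithelial splice form is its receptor, was at -1.38, though one probe set read 0.752 in clone 30 and 3.95 in clone 42 and the other 0.986 in clone 30 and 1.28 in clone 42. Angptl4, a secreted lipase inhibitor, was higher in clone 30 by 1.87, while Flt1, a VEGF receptor, was at -1.03 and Vegfb, one of its ligands, at -1.02, the only 3 of 17 measured VEGF and vessel genes apart. With every probe set averaged, Angptl4 is at 0.95, Flt1 at -0.26 and Fgfr2 at -0.93, so that none of these keeps its call. Of 27 measured Wnt genes (7.41% lower), Wnt7b, a ligand, was at -1.55 and Nkd1, an inhibitor that Wnt signals switch on, at -1.19, both with probe sets of unequal size. Of 13 measured Notch genes (15.4% lower), Hes6, a hairy-related factor, was at -1.68 and Lfng, a glycosyltransferase that modifies Notch, at -1.08 (log2). Nkd1 is at -0.89 and Hes6 at -0.86 with every probe set averaged, both under the size used for calls. Among 29 measured chemokine, cytokine and receptor genes 6.90% were higher and 3.45% lower. Ccl2, a chemokine for monocytes, read 1.24 in clone 30 and 0.279 in clone 42. Ccr1, a chemokine receptor, read 2.00 in clone 30 and 0.568 in clone 42, again measured through clone 30 alone. Il1rap, the shared chain of interleukin-1 receptors, was at -1.05. Averaging every probe set puts Ccr1 at 0.91 and Il1rap at -0.20, so that neither keeps its call.

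Transcription factors of patterning were apart in both directions on the deposited scale, though not after poly-A scaling, where 0 of 39 homeobox genes were higher, 15 were lower and the median was -0.84. On the deposited scale 2 of the 39 measured were higher and 4 lower (5.13% and 10.3%, against 1.94% and 2.42% of all genes). Of the 39, 30 were below 0 and the median was -0.20, beside 54.4% below 0 and a median of -0.01 over all genes. Dlx2 read 0.115 in clone 30 and 1.00 in clone 42, and clones 1D and 11B were above both. Prrx2, a paired-related homeobox gene of mesenchyme, read 0.158 in clone 30 and 1.00 in clone 42. For both, clone 30 was the lowest clone. Irx2 (-1.28) and Irx5 (-1.24), members of the Iroquois clusters, read 1.05 and 0.716 in clone 30, against 2.55 and 1.69 in clone 42. Meis1, a cofactor of HOX proteins, was higher at 1.62 (0.54 with every probe set averaged), reading 1.87 in clone 30 and 0.609 in clone 42. Hoxb13 was at 1.02. Tfap2a, an AP-2 factor of neural crest and epithelium, read 0.794, 0.756 and 0.639 in clone 30, against 3.47, 2.16 and 2.32 in clone 42.

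Hand2, a helix-loop-helix factor of the developing right ventricle and heart mesenchyme, read 0.910 and 0.995 in clone 30, against 3.63 and 2.78 in clone 42. The other clones lay between 0.882 and 1.01, and the first probe set counted as measured only through clone 42, so the higher clone 42 rests on the second, with 2.78 in clone 42. With Irx5 it made up the 2 lower genes among 25 measured cardiac genes. The 1 higher gene was Tnnc1, cardiac troponin C, at 1.00 in clone 30 and 0.304 in clone 42. Gata4 (-0.02), Gata6 (0.39) and Nkx2-5 (0.11), core factors of heart development, were not apart, and among sarcomere genes Myh6 was at -0.56, Myh7 at 0.33 and Tnnt2 at 0.08. Tcf21, Wt1 and Tbx18, factors of the epicardium, were at the floor.

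Of 22 mesothelial and epithelial genes, 10 were measured and 3 were higher in clone 30 (30.0%, against 1.94% of all genes), with a median of 0.80, and of 0.16 after poly-A scaling, where 1 was higher. Krt8, a keratin of simple epithelia, read 2.27, 3.55 and 2.82 in clone 30, against 1.00, 0.943 and 1.00 in clone 42. Its partner Krt18 was at -0.02. Anxa8, an annexin, read 1.64 and 8.20 in clone 30, against 1.00 and 0.452 in clone 42, the second probe set counting as measured only through clone 30. Without that probe set Anxa8 is at 0.71, under the size used for calls. Upk3b, a uroplakin of mesothelium, read 1.36 in clone 30 and 0.602 in clone 42 and was measured through clone 30 too, and with values raised to the floor it is at 0.44. The count of 3 thus depends on the floor, and Krt8 is the member whose call does not. Msln, mesothelin, was at 0.83 and Krt7 at 0.91, while Wt1, Lrrn4, Bnc1 and Muc16 were at the floor.

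Markers by which the cells were described gave little contrast. Kit, the gene of c-kit, read 0.991 in clone 30 and 0.997 in clone 42 and up to 1.18 in the other clones. That pair of values in clones 30 and 42 recurred on 40 other probe sets, so it need not show equal expression. Pou5f1, the gene of oct-4, was at the floor. Ly6a, the gene of Sca-1, had no probe set of its own here. Of 9 measured progenitor and stromal surface markers, Cd44, the hyaluronan receptor, read 0.266 in clone 30 and 1.00 in clone 42 (-1.91), though 3 further probe sets of it lay under the floor in both and averaging them in gives -0.48, and Itga6 was the other one lower. Markers of other cell types were mostly without a value. For endothelial cells 1 of 14 was measured (Egfl7 at -0.11) and Pecam1, Cdh5, Kdr and Tek were at the floor. For blood cells 4 of 18 were measured, from -0.02 to 0.12, with Ptprc and Cd68 at the floor, and for pericytes 1 of 10 (Abcc9 at 0.04). Among fibroblast markers 7 of 17 were measured and the 2 higher were Col1a1 and Col3a1, while Dcn, Lum, Dpt and Thy1 were at the floor, Pdgfra was at -0.34 and Ddr2 at -0.34.

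Genes of growth and basic metabolism gave few calls on the deposited scale. Of 36 measured DNA replication genes and 36 mitosis genes 0 were 1 log2 unit apart, with medians of -0.10 and -0.06. After poly-A scaling the medians were -0.74 and -0.70, with 9 replication genes and 8 mitosis genes lower and 0 higher in either list. Cdc45, a helicase subunit, lay just inside the limit, at 0.482 in clone 30 and 0.963 in clone 42. Next came Rpa2 at -0.84 and Pcna, the replication clamp, at -0.82, and in mitosis Cks2 at -0.77, Bub1 at -0.73 and Ccnb2 at 0.68. None of 38 cytosolic and 70 mitochondrial ribosomal protein genes was apart, while after poly-A scaling 3 and 11 were lower. Of 74 measured respiratory chain genes 4 were higher (5.41%, against 1.94% of all genes) and 0 lower: Ndufs7 (1.18) and Ndufb7 (1.04) of complex I, Uqcr11 (1.15) of complex III and Cox7a2 (1.16) of complex IV. Ndufs7 read 2.45 and 2.11 in clone 30, against 1.00 and 1.00 in clone 42. The median of this list was 0.09, and -0.56 after poly-A scaling, where 0 were higher and 5 lower. The proteasome had 1 of 43 measured genes apart, the ATPase subunit Psmc6 at -1.47 (-0.49 with every probe set averaged), but 31 of the 43 were below 0 and the median was -0.29, which became -0.93 after poly-A scaling, where 14 were lower.

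Differences were unevenly placed on the chromosomes. On chromosome 9, 36 of 504 measured genes were at least 1 log2 unit higher in clone 30 (7.14%, against 1.94% of all genes) and 6 were lower (1.19%). These 36 are 20.6% of all higher genes. They included Cryab, Sema7a, Tagln, Ccr1, Sema3b, Smad6, Gpx1, Cox7a2 and Pcolce2, and also Dapk2 (2.17) and Slc25a36 (2.05), and were spread along the chromosome, with 10, 9, 8 and 9 in successive stretches when its genes were split into 4 equal stretches in order. In 25 of the 36, clone 30 was farther than clone 42 from the other clones. The chromosome's median was 0.09 only, and Mmp3 on the same chromosome was lower. On chromosome 13, 27 of 335 measured genes were lower in clone 30 (8.06%, against 2.42% of all genes) and 3 higher (0.896%), among them Fst. The 27 are 12.4% of all lower genes, with 7, 12, 6 and 2 in such stretches, and they included Tbc1d7, Thoc3, Ranbp9, Tfap2a, Ctsl, Irx2 and Id4. The stretch with 12 had a median of -0.26. Chromosome 19 had the lowest median, -0.13, with 13 lower and 3 higher of 320.

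**Figure D5:**
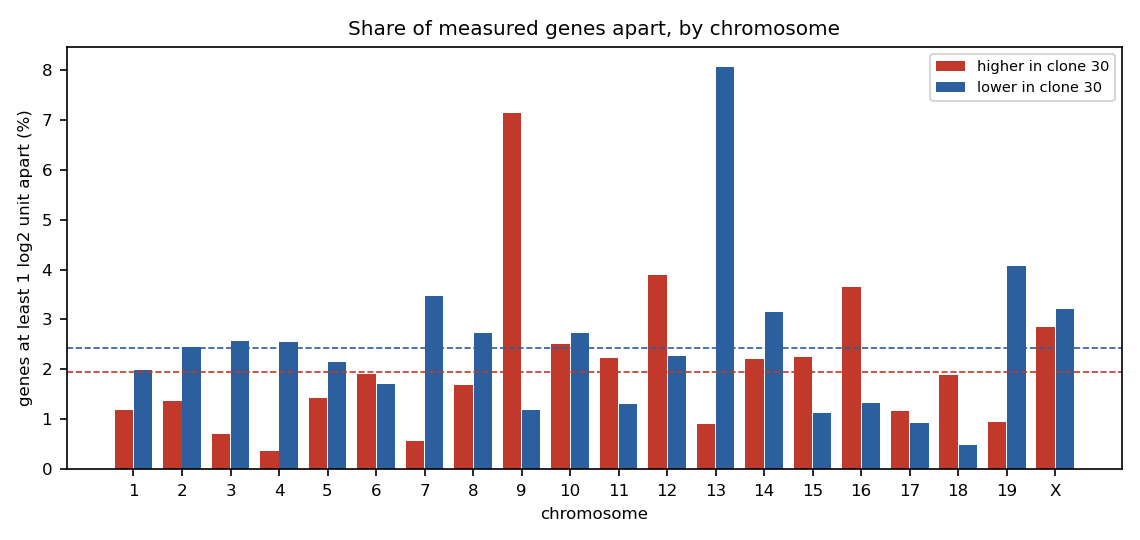
Share of measured genes (vertical axis, percent) at least 1 log2 unit higher (red) or lower (blue) in clone 30 than in clone 42, by chromosome, with dashed lines at the shares over all genes. The tallest bars are chromosome 13 for lower genes (8.06%) and chromosome 9 for higher genes (7.14%).

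Medians were also taken over runs of 15 neighbouring measured genes, which overlap. The 5th percentile of these medians was -0.25 and the 95th was 0.18, and the runs named here were picked as extremes. Of the 8725 runs, the highest lay on chromosome 9 from Gpr83 to Raver1 at 0.57, where 13 of the 15 genes were above 0 and 4 were at least 1 log2 unit higher, Chordc1, Olfm2, Dnmt1 and Raver1. Another on chromosome 16, from Osbpl11 to Kpna1 with Itgb5 inside it, was at 0.57 as well. In both it was clone 30 that departed from the other clones, by a median of 0.35 and 0.75. The lowest, on chromosome 8 from Ppp2cb to Cnot7, was at -0.76 (log2), and there clone 42 departed, by a median of 0.59 above the other clones while clone 30 was at -0.01. The next, on chromosome 10 from Pald1 to Ccar1 with Hk1 inside it, was at -0.66.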

How the data were processed

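Total RNA of 5 clones was measured on Affymetrix arrays, 1 per clone. The values deposited by the authors are linear ratios, as read from the values themselves. RMA and GCRMA are named in the submitters' processing notes, with no version or role. For 18926 of 45101 probe sets the median of the 5 values is exactly 1 and for the rest it is lower, so each is taken as divided by its own median or by a higher floor. This division is not given in the sources used here. Detection calls were not used here, and the number of arrays limits the precision.

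A probe set was measured where its median was exactly 1, or clone 30 or 42 exceeded 1, provided that highest and lowest clone were more than 0.05 log2 units apart. This kept 14514 probe sets with their own median and 793 with the floor. Those with the floor enter through the higher clone and so tend to differ. Of all probe sets 34958 had 1 gene symbol, 932 several and 9211 none, and 34754 were matched to RefSeq (GRCm38.p6) by gene ID. Gene values are means of log2 differences over measured probe sets (Python 3.11.15, pandas 2.3.3, numpy 2.4.6). With 1 array per clone no test was run. Named genes are the 12 largest in each direction among genes with 2 or more measured probe sets, all at least 1 log2 unit apart the same way, the 12 largest on 1 probe set not marked _x_at, every member of a described list at least 1 log2 unit apart (or the 3 farthest where none was), SDF-1 and progenitor genes, and genes in described chromosome runs. A probe set with the floor counts among those apart the same way, though its direction was fixed by the filter. Some list members less than 1 log2 unit apart, and Dapk2 and Slc25a36, were named after their values were seen. The members and the 48 lists were chosen with earlier results of these data known. Alternatives changed the probe sets averaged, the floor, the filters and the scaling.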

Additional observations from a re-analysis of the deposited data

How the results depend on the processing

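With 1 array per clone no replicate could be left out. No paired analysis was possible because each group holds a single array. The genes at least 1 log2 unit apart, 175 higher and 218 lower in clone 30, became 116 higher and 99 lower when every probe set of a gene was averaged, unmeasured ones included, and all of these were among the original calls. At 2 log2 units, 20 lower genes became 9 with every probe set averaged and 37 when each gene was read from its probe set with the highest average. Scaling to the poly-A controls, added after seeing the data, gave 53 higher and 1497 lower at 1 log2 unit and 16 higher and 80 lower at 2 log2 units, a shift of all genes alike. The 3 higher mesothelial and epithelial genes became 1 without probe sets marked _s_at or _x_at and 1 with own-median probe sets only. The 4 lower integrins and actin regulators became 2 with every probe set averaged and 2 with the probe set of smallest difference. The 27 lower genes of chromosome 13 became 15 with every probe set averaged. Taking the probe set of smallest difference, Sparc was at -0.16 and Emilin1 at -0.0145, both turned in sign. Of 118 named genes at least 1 log2 unit apart, 68 kept their call in all 11 alternatives other than poly-A scaling that measured them, 33 lost it with every probe set averaged and 22 with the smallest difference. Quantile normalization kept 171 of the 175 higher and 213 of the 218 lower calls. Leaving out the genes of chromosomes 9 and 13, added after seeing the data, gave 136 higher and 185 lower.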

Other observations

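Other gene lists gave a few genes apart on either side. Their counts are to be read against 1.94% of all genes higher in clone 30 and 2.42% lower. Among 36 measured axon guidance genes 5.56% were higher and 5.56% lower. Sema7a and Sema3b (1.67), a secreted semaphorin, were higher in clone 30, and Sema3c and Epha1 (-1.26), an ephrin receptor, were lower. With every probe set averaged, Sema3b is at 0.55 and Epha1 at -0.42. Of 37 measured lysosomal genes 2.70% were higher and 5.41% lower. Lamp2, a membrane protein of lysosomes, read 0.917, 1.31 and 1.36 in clone 30, against 0.863, 0.442 and 0.353 in clone 42. One probe set was thus hardly apart, and Lamp2 is at 0.90 with every probe set averaged. The proteases Ctsl and Ctsd were lower at -1.44 and -1.15, and Ctsl is at -0.71 with every probe set averaged. In the NRF2 and glutathione list, 1 of 40 measured genes was higher and 1 lower (2.5% each), close to the shares over all genes. Gpx1, a glutathione peroxidase, read 1.16 in clone 30 and 0.485 in clone 42, and Gclm, the modifier subunit of the enzyme that starts glutathione synthesis, read 0.226 in clone 30 and 0.793 in clone 42. Gclm is at -0.90 with every probe set averaged, under the size used for calls.

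Of 32 measured glycolysis and hypoxia genes (3.125% higher and 3.125% lower), Ldhb, a lactate dehydrogenase chain, was at 1.34 and Hk1, a hexokinase, at -1.01. Of 17 measured adipogenic and lipid storage genes, Pparg, the nuclear receptor that drives fat cell formation, read 1.00 in clone 30 and 0.309 in clone 42, Angptl4 was higher too, and Pnpla2, a triglyceride lipase, was at -1.15. Averaging every probe set puts Angptl4 at 0.95 and Pnpla2 at -0.58, both under the size used for calls. Among 33 measured immediate early and ERK feedback genes 6.06% were higher and 6.06% lower. Klf2 (1.19) and Spry4 (1.13) were higher in clone 30 and Dusp14 and Fosl1 (-1.02), an AP-1 subunit, were lower. Spry4 falls to 0.28 with every probe set averaged. Of 12 measured histone genes, H2ac19 read 2.77 and 2.95 in clone 30, against 1.00 and 1.00 in clone 42. In the p53 list, Gadd45a was at 1.05 and Mdm2, the ligase that degrades p53, at -1.02 (-0.31 with every probe set averaged). Socs3, a feedback inhibitor of cytokine receptors, was at -1.16. With values raised to the floor Socs3 is at -0.96, and without probe sets marked _s_at or _x_at at -0.69. Both are under the size used for calls.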
